A study of Homo sapiens with 6 samples.

Results

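Small nucleolar RNA (snoRNA) host genes are transcription units whose introns carry snoRNAs. The genes described here were the 31 genes of GENCODE release 44 on GRCh37 (the hg19 build) named SNHG with a number, together with GAS5, ZFAS1 and EPB41L4A-AS1, out of 64486 annotated genes. All 31 are annotated as long non-coding RNA (lncRNA) genes, and 29 contained at least 1 snoRNA or small Cajal body RNA gene within their record in GENCODE or RefSeq, the exceptions being SNHG20 and SNHG21. R-loop peaks were assigned to a host when they overlapped its gene record or the 2 kb on either side of it. This gave 46 of the 10231 peaks of untreated cells and 48 of the 11085 peaks of treated cells.

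The peaks came from strand-specific kethoxal-assisted single-stranded DNA sequencing (spKAS-seq) in HEK293T cells, a human embryonic kidney line. Wild-type cells were left untreated or received 10 μM N2-heptynyl-dG, a deoxyguanosine with an alkynyl chain on its N2 atom, for 3 h. Both conditions then received 5 mM N3-kethoxal for 10 min, which tags guanines of unpaired DNA. There were 2 samples per condition and 2 inputs, but 1 list of peaks per condition, with no peak height, so no difference between the lists could be tested against replicates and the depth behind a peak is unknown.

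An R-loop consists of an RNA-DNA hybrid and the displaced single strand of DNA. The tagged strand is the displaced one, so a peak on the strand of a gene is the one that transcription of that gene would give. In a host gene the snoRNA is released from an intron of the spliced transcript by trimming of the debranched lariat, and it then guides ribose methylation (box C/D) or pseudouridylation (box H/ACA) of ribosomal RNA and other RNAs. The spliced host RNAs mostly lack long reading frames, and several are degraded by nonsense-mediated decay in the cytoplasm. Many host genes start with a run of pyrimidines, as genes of ribosomal proteins do. Transcript levels of the hosts were not part of the peak lists.

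Peaks were found at 26 of the 31 hosts. SNHG3, SNHG12, GAS5, SNHG31, SNHG8, EPB41L4A-AS1, SNHG4, SNHG32, SNHG5, SNHG26, SNHG15, SNHG6, SNHG7, SNHG1, SNHG9, SNHG19, SNHG29, SNHG30, SNHG25, SNHG16, SNHG20, SNHG22, SNHG17, SNHG11 and ZFAS1 had a peak in both lists, which makes 25. SNHG10 had one in the treated list only. SNHG28, SNHG27, SNHG18, SNHG14 and SNHG21 had none in either list. SNHG14, the host of the imprinted SNORD115 and SNORD116 clusters, had no peak although its record is the longest of the set with 441754 bp and holds 72 of the 100 snoRNA genes that GENCODE places in these hosts.

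The share of hosts with a peak was 80.6% (25 of 31, 95% exact interval 62.5 to 92.5) in untreated and 83.9% (26 of 31, 66.3 to 94.5) in treated cells. Over all annotated genes the share was 19.1% and 20.1%, over lncRNA genes 15.0% and 16.2%, and over protein-coding genes 41.7% and 43.8%. Among the 424 protein-coding genes that hold a snoRNA in GENCODE, 59.0% (54.1 to 63.7) had a peak in untreated and 62.3% (57.5 to 66.9) in treated cells. For the 91 other lncRNA genes with a snoRNA the shares were 28.6% (19.6 to 39.0) and 33.0% (23.5 to 43.6). The intervals cover counting error over genes only, and those of the 31 hosts overlapped narrowly with those of the protein-coding hosts and did not overlap those of the other lncRNA hosts.

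**Figure D1:**
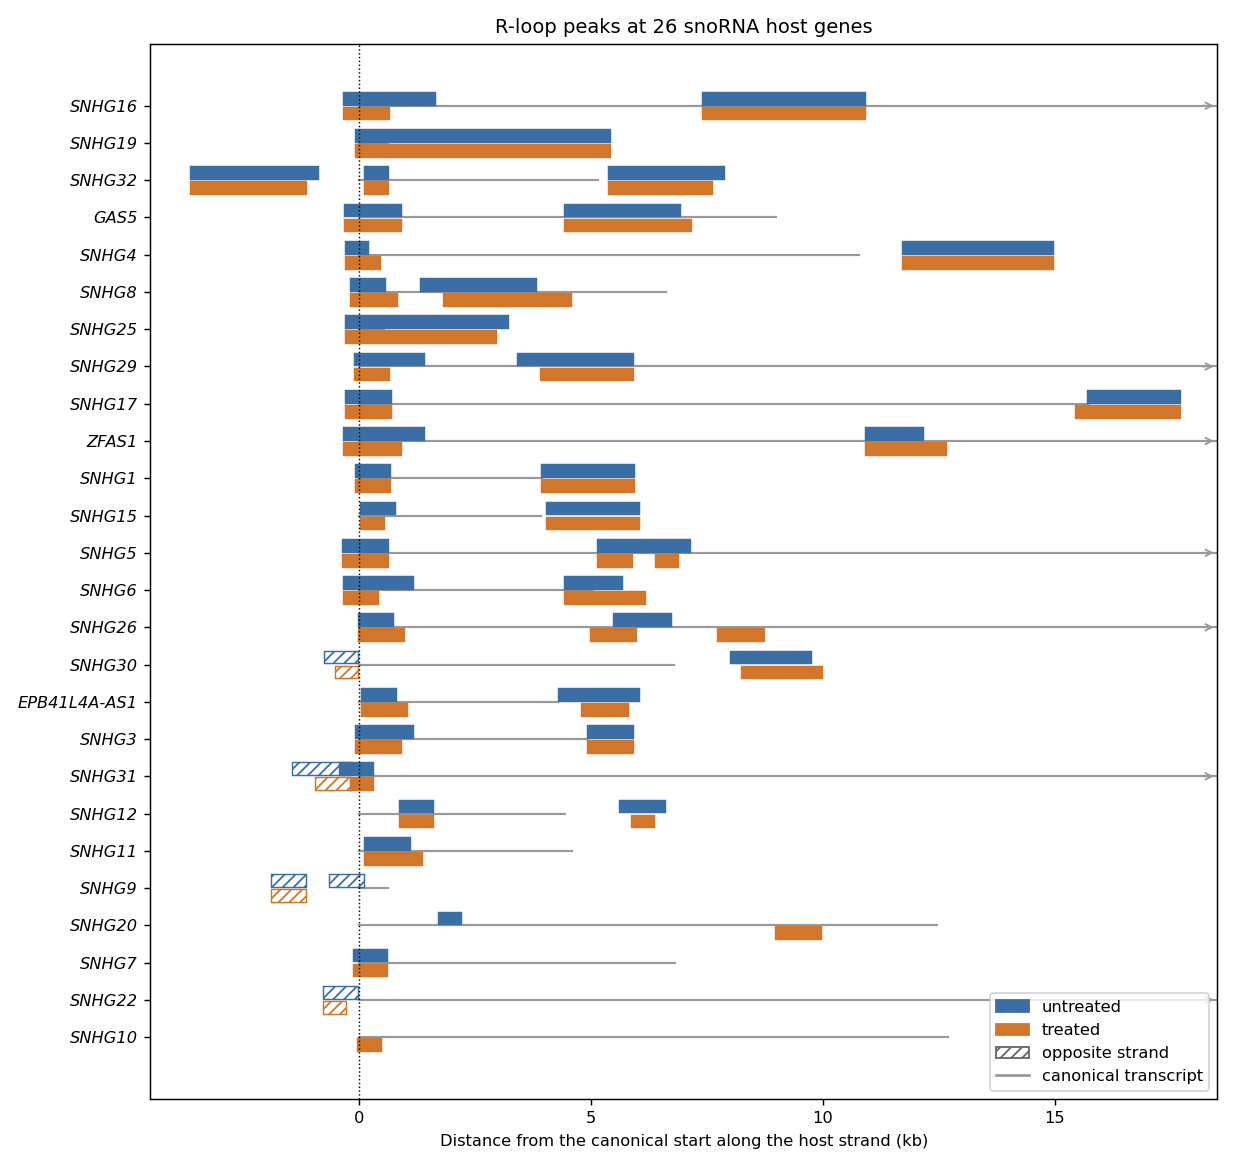
Peaks of the 26 hosts with a peak, drawn by distance from the start of the canonical transcript in kb along the strand of the host, with untreated peaks in blue above treated peaks in orange, and peaks on the opposite strand hatched. The grey line is the canonical transcript, an arrow marks transcripts that go on past the axis, and 2 peaks of SNHG16 that begin more than 27 kb after its start are not drawn. A peak at the start followed by a separate, often wider peak further along the gene recurs in many of the rows.

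Most of these peaks lay on the strand of the host. In untreated cells 41 of 46 did (89.1%, 76.4 to 96.4), and in treated cells 43 of 48 (89.6%, 77.3 to 96.5). For pairs of any lncRNA gene and a peak the share was 50.7% and 50.5%, and for protein-coding genes 69.4% and 68.7%. Such a same-strand peak was present at 23 hosts in untreated and 24 in treated cells, 2 fewer in each list than the hosts with a peak of either strand, whereas 13.3% and 14.1% of all genes, 8.30% and 9.02% of lncRNA genes, and 31.6% and 33.2% of protein-coding genes had one. The 2 hosts with opposite-strand peaks alone were SNHG9 and SNHG22.

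A peak on the opposite strand was present at 4 hosts in untreated (12.9%, 3.63 to 29.8) and 5 in treated cells (16.1%, 5.45 to 33.7). The background shares were 8.38% and 9.06% of all genes, 8.38% and 9.27% of lncRNA genes, and 16.7% and 17.9% of protein-coding genes, all within the intervals of the hosts. Each of the opposite-strand peaks lay upstream of or over the start of its host except for that of SNHG16. At SNHG9, whose record of 615 bp lies beside the ribosomal protein gene RPS2, the untreated list held 750-bp peaks at chr16:2013001-2013750 and chr16:2014251-2015000 on the minus strand, the strand of RPS2. Only the first of them was in the treated list. At SNHG22, which shares its start region with ACAA2, a mitochondrial thiolase gene on the minus strand, the peak was chr18:47339615-47340364 in untreated and the shorter chr18:47339615-47340114 in treated cells. SNHG31 and SNHG30 each had an opposite-strand peak beside a same-strand one. The peak at SNHG31 lay on the strand of BARD1, the partner of BRCA1, and measured 1250 bp (chr2:215673492-215674741) and 750 bp (chr2:215673992-215674741). That at SNHG30 measured 750 bp (chr17:33894373-33895122) and 500 bp (chr17:33894623-33895122). SNHG16 had a 500-bp opposite-strand peak at chr17:74581253-74581752 in treated cells only, over ST6GALNAC2, a sialyltransferase gene that lies within the long record of SNHG16.

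The start regions of the hosts with the largest summed peak width whose start lay under a same-strand peak are printed here from the GRCh37 genome. That of SNHG10, the host listed in treated cells only, is added. Each runs from 30 bases before to 30 bases after the first base of the canonical transcript, 5′ to 3′ on the strand of the host. The start peaks of these hosts begin before the printed bases. Capitals mark the first transcribed base or, where it lies in a run of at least 5 C or T bases, that run.
SNHG16, chr17:74553827-74553887, plus strand: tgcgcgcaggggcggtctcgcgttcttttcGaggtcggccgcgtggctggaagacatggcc
SNHG19, chr16:2205376-2205436, minus strand: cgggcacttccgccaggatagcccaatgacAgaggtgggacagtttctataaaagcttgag
GAS5, chr1:173837097-173837157, minus strand: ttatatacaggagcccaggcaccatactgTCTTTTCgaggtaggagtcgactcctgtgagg
SNHG4, chr5:138609790-138609850, plus strand: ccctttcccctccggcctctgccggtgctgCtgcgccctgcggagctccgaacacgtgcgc
SNHG8, chr4:119199833-119199893, plus strand: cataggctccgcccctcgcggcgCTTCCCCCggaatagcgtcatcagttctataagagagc
SNHG10, chr14:96000949-96001009, minus strand: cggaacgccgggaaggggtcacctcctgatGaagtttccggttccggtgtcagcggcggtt
The run covers 7 bases in GAS5 and 8 in SNHG8. SNHG16 has a run of pyrimidines directly before its annotated first base, which is a G. Over the whole set, such a run lay over the start of 7 of 31 hosts (22.6%, 9.59 to 41.1), namely SNHG12, GAS5, SNHG8, SNHG7, SNHG29, SNHG25 and ZFAS1, against 8.64% of all genes, 12.2% of lncRNA genes and 7.85% of protein-coding genes. The interval for the hosts includes the lncRNA value. The match depends on the exact annotated start base. A run of at least 8 C or T bases that touched the 10 bases on either side of the start was found at 12.9% of hosts (3.63 to 29.8), no more than the 13.6% of all genes, 16.9% of lncRNA genes and 14.9% of protein-coding genes.

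A same-strand peak over or within 500 bp of the canonical start, called a start peak here, was present at 20 hosts in untreated (64.5%, 45.4 to 80.8) and at 21 in treated cells (67.7%, 48.6 to 83.3). The treated set added SNHG10 to the same 20 hosts. Of all genes, 7.16% and 7.98% had a start peak, of lncRNA genes 4.49% and 4.91%, of protein-coding genes 17.3% and 19.4%, and of the other protein-coding snoRNA hosts 30.2% (25.9 to 34.8) and 31.6% (27.2 to 36.3). The first base itself lay under a same-strand peak at 16 hosts in untreated (51.6%) and 17 in treated cells (54.8%), against 5.51% and 6.20% of all genes, 3.06% and 3.41% of lncRNA genes, and 13.9% and 15.6% of protein-coding genes. In the treated list the median start peak reached from 140 bp before to 668 bp after the start, and its median width was 1000 bp.

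SNHG19 and SNHG25 have records of 614 bp and 540 bp, and their start peaks ran far past them. The peak of SNHG19 at chr16:2200001-2205500 measured 5500 bp, the greatest width found in either list, and had the same borders in untreated and treated cells. That of SNHG25 covered chr17:62223003-62226502 (3500 bp) in untreated and chr17:62223003-62226252 (3250 bp) in treated cells. In both genes the single peak thus began before the start and ended more than 2 kb beyond the annotated end.

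Many hosts had a second same-strand peak separated from the first. A peak whose 5′ border lay 1 to 12 kb after the canonical start, a window chosen after the positions were seen, was present at 17 hosts in either list (54.8%). The background shares were 4.97% and 5.18% of all genes, 3.42% and 3.60% of lncRNA genes, and 8.18% and 8.39% of protein-coding genes. Both a start peak and such a downstream peak were listed at 14 hosts in each list (45.2%), namely EPB41L4A-AS1, GAS5, SNHG1, SNHG15, SNHG16, SNHG26, SNHG29, SNHG3, SNHG32, SNHG4, SNHG5, SNHG6, SNHG8 and ZFAS1. At SNHG3, SNHG4, SNHG5 and SNHG32 the start peak, the downstream peak or both also lay over another gene of the same strand. The start peaks of SNHG3 and SNHG4 lay over or within 500 bp of the canonical start of that gene. The count was not repeated without such peaks. Of all genes 1.02% and 1.12% had both, of lncRNA genes 0.385% and 0.460%, and of protein-coding genes 2.60% and 2.81%.

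**Figure D2:**
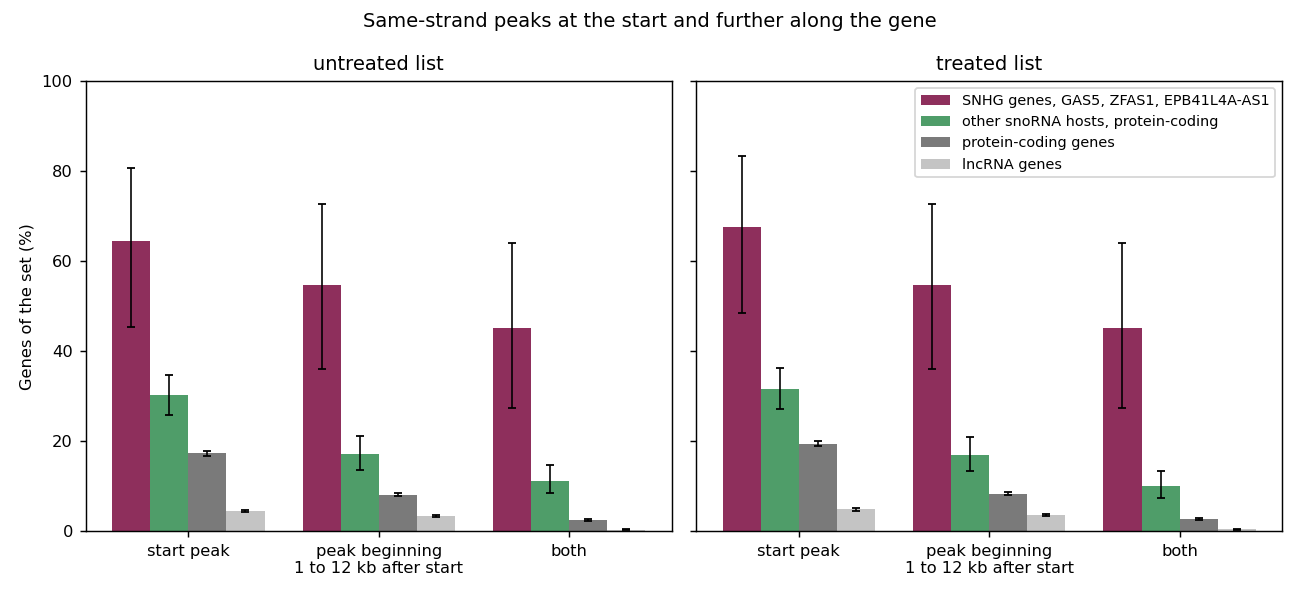
Share of genes in percent with a start peak, with a same-strand peak beginning 1 to 12 kb after the start, and with both, for the 31 hosts, 424 other protein-coding snoRNA hosts, all protein-coding genes and all lncRNA genes, in the untreated (left) and treated list (right). Bars start at 0 and the error bars are exact 95% intervals that cover counting error only. The hosts have the highest bar in each group, for example 45.2% with both kinds of peak.

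The downstream peaks were also counted among the genes with a start peak alone. Of the 20 hosts with a start peak in untreated cells 14 had a downstream peak (70.0%, 45.7 to 88.1), and of the 21 in treated cells 14 (66.7%, 43.0 to 85.4). This compared with 14.3% and 14.0% of all genes with a start peak, 8.57% and 9.36% of such lncRNA genes, 15.1% and 14.5% of such protein-coding genes, and with 37.5% (29.1 to 46.5) and 32.1% (24.3 to 40.7) of the other protein-coding snoRNA hosts with one. Of the other lncRNA hosts in GENCODE, 3 of 9 with a start peak in untreated (33.3%, 7.49 to 70.1) and 3 of 8 in treated cells (37.5%, 8.52 to 75.5) had a downstream peak, with intervals that overlap those of the 31 hosts. Gene length moved with this share. The canonical transcripts of the hosts spanned a median of 6819 bp and those of protein-coding genes 22656 bp. Among genes with spans of 2 to 15 kb, the share was 9 of 11 hosts in untreated (81.8%, 48.2 to 97.7) and 9 of 12 in treated cells (75.0%, 42.8 to 94.5), against 39.0% (36.0 to 42.0) and 37.7% (34.9 to 40.5) of protein-coding genes, and 9.87% (6.36 to 14.4) of other lncRNA genes in untreated cells.

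The 17 untreated downstream peaks at these hosts began a median of 4905 bp after the start (1308 to 11702) and had a median width of 2000 bp. The 19 treated ones began at a median of 5135 bp (1808 to 11702) and had a median width of 1750 bp. Of them, 12 and 13 lay over or within 500 bp of the 3′ end of an annotated transcript of the host. Counting every same-strand peak in the window after genes with a start peak, also those more than 2 kb beyond the gene record, which are not among the host peaks above, 12 of 16 lay that near to a transcript end for the hosts in untreated cells (75.0%, 47.6 to 92.7), 234 of 579 for protein-coding genes (40.4%, 36.4 to 44.5) and 17 of 67 for other lncRNA genes (25.4%, 15.5 to 37.5). In treated cells the shares were 66.7% (41.0 to 86.7), 37.1% (33.2 to 41.0) and 25.9% (16.8 to 36.9). These shares were not matched for transcript span or for the number of annotated transcripts per gene. The end of any annotated transcript counted, and the downstream peak of SNHG16 covered such an end far before the canonical end. In untreated cells the start peaks of SNHG19, SNHG25, SNHG29 and ZFAS1 also covered such an end. Of the 17 untreated and 19 treated downstream peaks, 9 in each list lay wholly or partly beyond the canonical end.

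GAS5, a host of box C/D snoRNAs whose spliced RNA is known for its accumulation in growth-arrested cells, shows the arrangement. Its start peak, chr1:173836213-173837462, measured 1250 bp in both lists with the same borders. The downstream peak covered chr1:173830213-173832712 (2500 bp) in untreated and chr1:173829963-173832712 (2750 bp) in treated cells, beginning 4415 bp after the start. Both pairs differed by at most 1 step of 250 bp, the unit in which nearly all borders of the lists move.

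At SNHG4, host of SNORA74 genes, the start peak measured 500 bp in untreated (chr5:138609522-138610021) and 750 bp in treated cells (chr5:138609522-138610271). This peak also lay over the record of MATR3, a gene of a nuclear matrix protein on the same strand. The canonical start of MATR3 lay under it or within 500 bp of it. The downstream peak of 3250 bp, chr5:138621522-138624771, was the same in both lists and began 934 bp beyond the canonical end of SNHG4, within the record of MATR3. SNHG8, host of SNORA24, had start peaks of 750 bp (chr4:119199671-119200420) and 1000 bp (chr4:119199671-119200670), and downstream peaks of 2500 bp (chr4:119201171-119203670) and 2750 bp (chr4:119201671-119204420) in untreated and treated cells. Its downstream peak thus began and ended further from the start in the treated list.

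SNHG32, which carries the box C/D genes SNORD48 and SNORD52, had 3 same-strand peaks per list. The one at its start, chr6:31802501-31803000, measured 500 bp in both. The peak after its end measured 2500 bp in untreated (chr6:31807751-31810250) and 2250 bp in treated cells (chr6:31807751-31810000). The third lay upstream of the start, with 2750 bp (chr6:31798751-31801500) and 2500 bp (chr6:31798751-31801250). SNHG16, host of the SNORD1 genes, had the largest summed width over both lists, with 6250 bp without and 5000 bp with the treatment. In the treated list alone, SNHG19 with 5500 bp and SNHG32 with 5250 bp had more. The start peak of SNHG16 measured 2000 bp in untreated (chr17:74553503-74555502) and 1000 bp in treated cells (chr17:74553503-74554502), the largest difference between the lists for any host peak that had 1 partner. The downstream peak of 3500 bp, chr17:74561253-74564752, was the same in both lists.

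Several of the peaks overlapped other genes of the same strand, so they cannot be assigned to the host alone. This held for 11 of the 41 same-strand peaks in untreated and 12 of the 43 in treated cells, at SNHG3 (with RCC1), SNHG4 (with MATR3), SNHG5, SNHG16, SNHG17, SNHG20 (with SEC14L1), SNHG30 (with AP2B1) and SNHG32. Those of SNHG16 and SNHG30 were in the untreated and the treated list only, respectively.

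The snoRNA genes themselves were mostly outside the peaks. Of the 100 that GENCODE places in the hosts, 3 lay under a same-strand peak in untreated and 4 in treated cells. This compared with 1.90% and 2.06% of 632 snoRNA genes in other hosts. Without those of SNHG14 the host counts were 3 and 4 of 28 (10.7% and 14.3%). The other hosts were not reduced in the same way, so the shares of 28 have no matched background. No interval was computed for these shares. SNORD60 in SNHG19, SNORD104 in SNHG25 and SNORD12C in ZFAS1 lay under a peak in both lists. Part of SNORA13 in EPB41L4A-AS1 did so in the treated list only. The start peaks of SNHG19 and SNHG25 covered the whole of their short records. The GENCODE set is incomplete for some hosts. RefSeq, on GRCh38.p14, places 146 snoRNA genes in these hosts, among them 11 in GAS5 and 9 in SNHG1, for which GENCODE has 1 and 0, and these were not set against the peaks. In the 14 hosts with both kinds of peak, 11 of 12 GENCODE snoRNA genes lay wholly between the start peak and the downstream peak in untreated and 10 of 12 in treated cells. SNHG1, SNHG5, SNHG6, SNHG8, SNHG15 and SNHG29 hold none in GENCODE and add nothing to this count. The count follows in part from the definitions, because the snoRNA genes lie inside the host record. It was not made for other snoRNA hosts, so it has no background share. The gap between those peaks had a median of 3625 bp in untreated (750 to 11500) and 4000 bp in treated cells (1000 to 11250).

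The snoRNA sequences under a peak are printed from the GRCh37 genome on the strand of the gene, because they are the host snoRNAs whose own genes lay under a peak. Capitals mark TGATGA, the core of box C, at its first occurrence and CTGA, box D, at its last occurrence in the C/D genes, and ACA within the last 8 bases in SNORA13.
SNORD60, chr16:2205024-2205106, minus strand: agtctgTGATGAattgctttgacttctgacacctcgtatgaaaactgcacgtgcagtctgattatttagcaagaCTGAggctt
SNORD104, chr17:62223443-62223512, plus strand: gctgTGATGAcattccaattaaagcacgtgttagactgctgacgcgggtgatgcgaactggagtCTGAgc
SNORD12C, chr20:47895477-47895565, plus strand: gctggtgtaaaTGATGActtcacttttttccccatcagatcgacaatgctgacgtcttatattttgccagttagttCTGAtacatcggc
SNORA13, chr5:111497182-111497314, plus strand: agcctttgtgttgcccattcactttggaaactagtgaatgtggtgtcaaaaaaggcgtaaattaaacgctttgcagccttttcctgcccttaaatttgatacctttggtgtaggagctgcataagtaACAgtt
Of 389 annotated SNORD genes, 64.3% hold TGATGA on their own strand, 77.4% hold CTGA in their last 15 bases and 53.7% hold both, and of 398 SNORA genes 72.6% hold ACA in their last 8 bases. The boxes are features of the snoRNA classes and say nothing of the peaks.

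Host peaks were wide. Their median width was 1250 bp without and 1000 bp with the treatment, against 750 bp over all peaks in either list. Widths of at least 2000 bp were found for 14 of 46 untreated (30.4%, 17.7 to 45.8) and 12 of 48 treated host peaks (25.0%, 13.6 to 39.6), where 6.36% and 5.64% of all peaks were that wide. Widths of 500 bp were found for 3 untreated (6.52%) and 9 treated host peaks (18.8%), against 41.1% and 42.5% of all peaks. Summed over the peaks of a host, the median was 2750 bp over the 25 hosts with a peak in untreated and 2500 bp over the 26 in treated cells. Over all genes with a peak, the median was 1000 bp in either list.

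The host peaks covered 70500 bp without and 66250 bp with the treatment, and 59000 bp were common to both on the same strand. The treated minus untreated difference was -4250 bp (-6.03%) for the hosts, whereas the length covered by all peaks was 4.45% higher in the treated list. Peaks on the strand opposite to the host made up 4250 bp of the untreated and 3000 bp of the treated sum. Of the 25 hosts with a peak in both lists, 7 had more, 14 had less and 4 had the same covered length in the treated list. The 14 include SNHG9 and SNHG22, which had opposite-strand peaks alone. SNHG16 and SNHG29 had the greatest differences, each with -1250 bp, and SNHG26 had 1000 bp more. The sums of SNHG16 hold a 750-bp untreated peak over another gene of its strand and a 500-bp treated peak on the opposite strand. No replicate spread exists for these lengths.

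**Figure D3:**
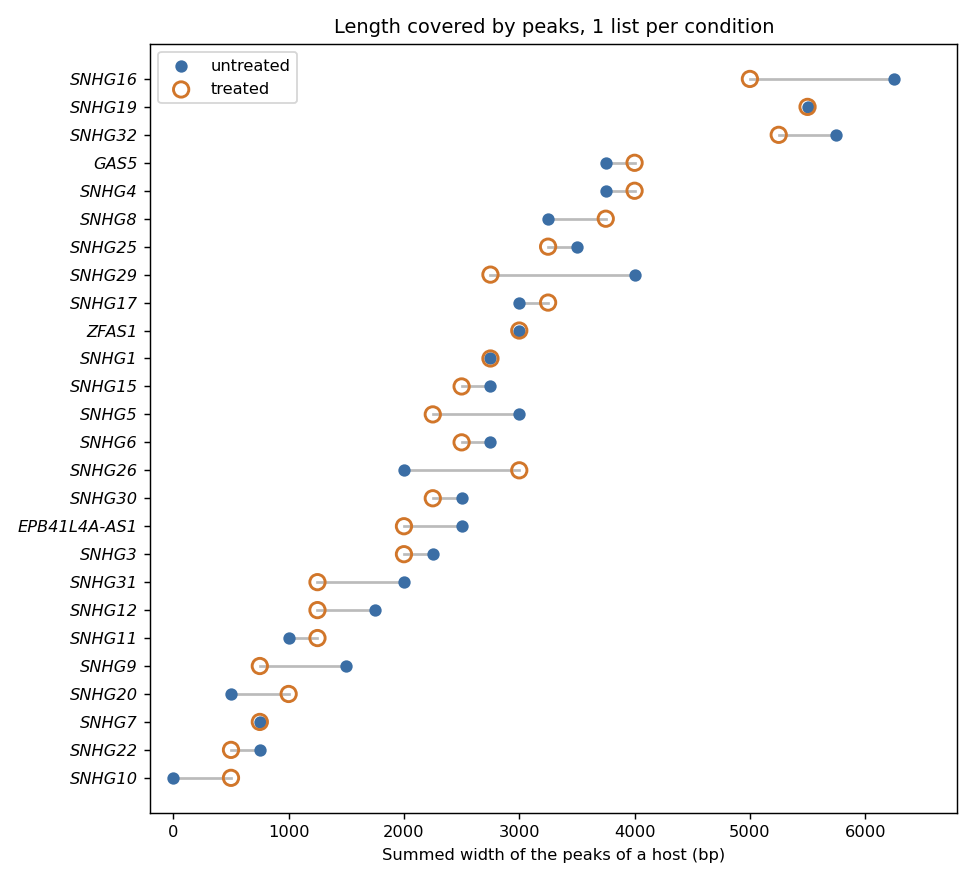
Summed width in bp of the peaks of each host, of either strand, within its record or 2 kb on either side, in the untreated (filled) and treated list (open), ordered by the sum over both lists. The sum over both lists was highest at SNHG16, with 6250 and 5000 bp. In the treated list alone SNHG19 was highest, with 5500 bp. SNHG10 had 0 and 500 bp. Each point is 1 list, so there is no error bar.

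Host peaks recurred between the lists more often than peaks at large. An overlap of at least 1 bp with a peak of the other list was found for 43 of 46 untreated (93.5%, 82.1 to 98.6) and 44 of 48 treated host peaks (91.7%, 80.0 to 97.7), against 74.8% and 69.5% of all peaks. Host peaks were also wider than peaks at large, and these shares were not matched for width. Identical borders and strand were found for 14 host peaks (30.4% of the untreated and 29.2% of the treated ones), against 32.2% and 29.7% of all peaks, of which more had no partner. Among peaks with exactly 1 partner on the same strand, 33.3% of 42 host pairs had identical borders, against 44.3% of all 7443 pairs. No interval was computed for the 42 pairs. For start peaks the share was 35.0% of 20 host pairs (15.4 to 59.2). It was 55.6% of 2734 pairs at protein-coding genes, which lies within that interval.

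The 7 host peaks without a partner measured 500 to 1000 bp, around the median of 750 bp over all peaks in either list. In untreated cells they were the peak of SNHG9 over its start described above, a 750-bp peak after the end of SNHG16 (chr17:74667753-74668502) and a 500-bp peak in SNHG20 (chr17:75084503-75085002). In treated cells they were the opposite-strand peak of SNHG16, the 500-bp start peak of SNHG10 (chr14:96000517-96001016), a 1000-bp peak in SNHG26 (chr7:22901501-22902500) and a 1000-bp peak in SNHG20 (chr17:75091753-75092752). SNHG20 thus had 1 peak in each list, which lay 1705 bp and 8955 bp after its start and did not overlap. SNHG10 contains SCARNA13, a small Cajal body RNA gene, and 500 bp is the narrowest of the usual peak widths.

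Of the 42 host peaks with exactly 1 partner on the same strand in the other list, 10 were wider, 17 were narrower and 15 were equally wide in the treated list. Of the 7443 such pairs in the whole lists, 25.0% were wider and 25.1% were narrower. The 5′ border, taken along the strand of the peak, differed in 9 host pairs (21.4%) and the 3′ border in 24 (57.1%), against 32.5% and 39.3% over all pairs. No interval was computed for these shares.

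The 20 pairs of start peaks had nearly fixed 5′ borders. Only that of SNHG31 differed (5.00%), whereas the 3′ border differed at 12 (60.0%), further downstream in treated cells at 5 and further upstream at 7. Over 2734 pairs of start peaks of protein-coding genes, the 5′ border differed in 21.5% and the 3′ border in 31.1%. This contrast was not tested, and no interval was computed for the 20 host pairs. The 5 longer ones, at SNHG11, SNHG8, EPB41L4A-AS1, SNHG4 and SNHG26, each gained 250 bp. The 7 shorter ones lost 250 bp at SNHG15, SNHG3 and SNHG25, 500 bp at ZFAS1, 750 bp at SNHG6 and SNHG29, and 1000 bp at SNHG16. Among the 17 pairs of peaks that began more than 500 bp after the start, the 5′ border differed in 7 and the 3′ border in 9.

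**Figure D4:**
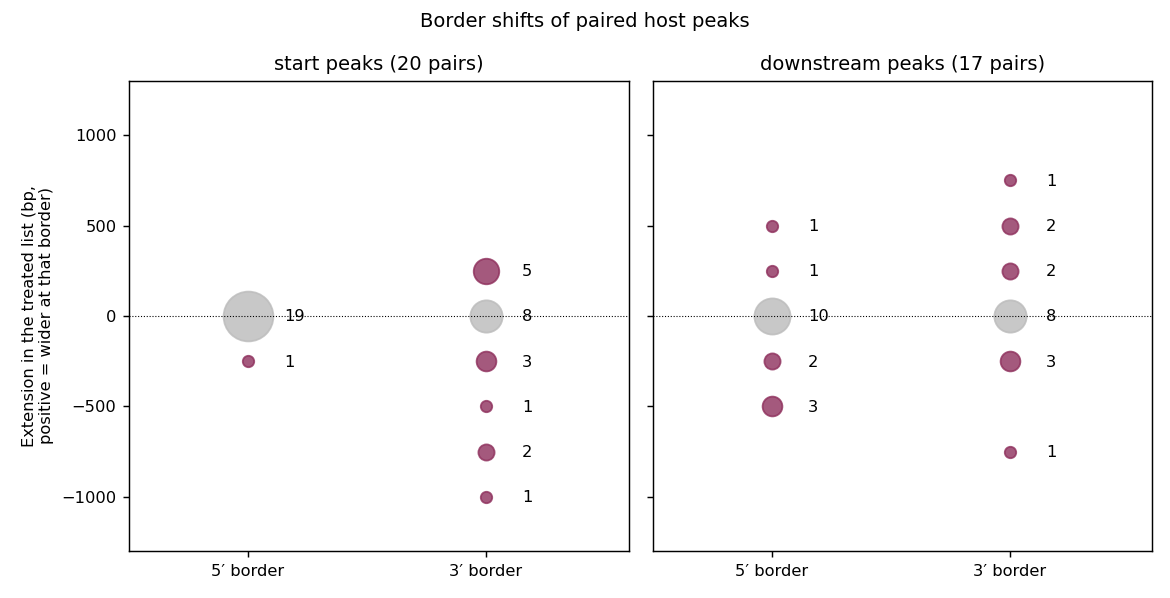
Extension in bp of the 5′ and 3′ border of host peaks in the treated relative to the untreated list, for 20 pairs at the start and 17 pairs further downstream, with the number of pairs beside each point and point area in proportion to it. Positive values mean that the treated peak reaches further out at that border. At the start, 19 pairs have no difference at the 5′ border, and the 3′ borders range from -1000 to 250 bp.

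The reference sequence under downstream peaks had fewer G and C bases than that under start peaks. Start peaks of the hosts had a median of 57.4% G and C bases in untreated and 57.3% in treated cells, and peaks further downstream 47.4% and 47.1%. The median of all peaks was 56.2% and 57.6%. The excess of G over C on the strand of the peak, as a share of their sum, had medians of 0.06 and 0.04 for start peaks, 0.02 and 0.01 for downstream peaks, and 0.00 and -0.01 for all peaks. Among same-strand downstream peaks, GC content ranged from 37.9% at SNHG26 to 66.7% at SNHG12 in untreated cells, where the peak of SNHG12 began 852 bp after its start.

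**Figure D5:**
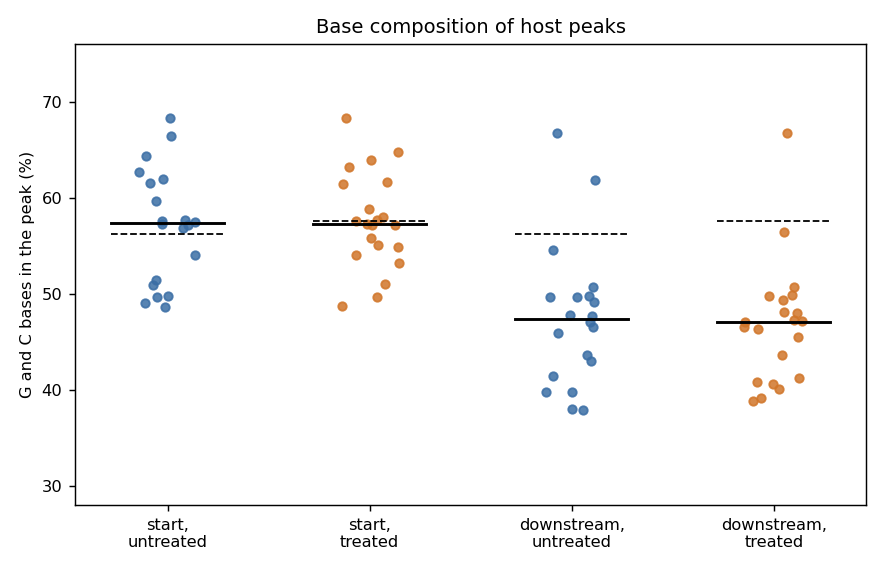
Percentage of G and C bases in the reference sequence of each start peak and each downstream peak of the hosts, by list, with a bar at the median and a dashed line at the median of all peaks of that list. The axis does not start at 0, and points are spread sideways at random. Downstream peaks have medians of 47.4% and 47.1%, below the 57.4% and 57.3% of start peaks.

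The genes of proteins that act on snoRNAs and on host transcripts were read against the 41.7% and 43.8% of protein-coding genes with a peak. Of 8 core snoRNP proteins, which bind the mature snoRNA, 6 genes had a peak in both lists and SNU13 and NHP2 had none. The interval of this share (75.0%, 34.9 to 96.8) includes the protein-coding values. FBL, the methyltransferase of C/D particles, had 1750 bp without and 1250 bp with the treatment, and DKC1, the pseudouridine synthase of H/ACA particles, had 1500 bp in both. Of 11 snoRNP assembly factors, 9 had a peak in untreated (81.8%, 48.2 to 97.7) and 10 in treated cells (90.9%, 58.7 to 99.8). RUVBL2, an ATPase of the R2TP complex, was listed in treated cells only (750 bp) and ZNHIT3 in neither. Of 9 nonsense-mediated decay factors, 4 had a peak in untreated and 4 in treated cells (44.4% each, 13.7 to 78.8), near the protein-coding values. The helicase gene UPF1 had none in either list, UPF2 had 1250 bp in untreated cells only, and SMG1, the kinase of UPF1, had 750 bp in treated cells only.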

How the data were processed

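The 2 deposited lists held the chromosome, start, end and strand of R-loop peaks, genome positions in base pairs (unit other), without height, score or p-value. Per the labels and methods, the authors used Trim Galore for trimming, Bowtie2 for alignment to hg19 and Picard against duplicates, and called R-loops from 2 replicates by an earlier method (versions not given in the sources used here). GEO attaches each list to the first replicate of its condition. The inputs were not analysed here. Starts were converted to count from 1. Peaks were assigned to genes of GENCODE release 44 mapped to GRCh37, and 31 of 31 hosts also matched RefSeq on GRCh38.p14, used for names and containment only. Shares of genes with a same-strand peak were set against all genes, among other sets. The strand of peaks, their nearness to transcript ends and the span classes were set against lncRNA and protein-coding genes only. Intervals are exact Clopper-Pearson 95% intervals and cover counting error only. No p-value was computed, since genes and peaks are not replicates. The genes described and the comparison lists were chosen with earlier results of these data known. One gene of the nonsense-mediated decay list is not reported here. Every host was named. Positions were given for hosts with a peak in 1 list only, the 6 with the largest summed width, peaks without a partner and opposite-strand peaks, together with other peaks of these hosts. The assignment of peaks was tested on simulated data. Python 3.11.15, pandas 2.3.3, numpy 2.4.6, scipy 1.17.1, pysam 0.24.0 and matplotlib 3.10.9 were used.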

Additional observations from a re-analysis of the deposited data

How the results depend on the processing

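The 18 results, 9 per list, were recomputed under 52 alternative settings in all. Of the alternative values, 49 stayed within the counting interval or within 1.5 times the count as reported. Changes of the distance around the record, the strand rule, the width limit or the span, and leaving out SNHG9 or SNHG19, were among these. With an overlap of 90% of both peaks required, the share of host peaks shared between the lists was 39.1% in untreated and 37.5% in treated cells, against 93.5% and 91.7% with 1 bp. By its construction, the stricter overlap drops pairs whose borders differ by over 10% of a peak's width, and 18 host peaks per list stayed shared. The share under the stricter overlap was not computed over all peaks. Host starts covered by a peak numbered 11 in either list with the start of the gene record in place of the canonical start. With the canonical start they numbered 16 in untreated and 17 in treated cells. Only the treated change was larger than 1.5 times. The downstream window of 2 to 10 kb, the transcript spans of 2 to 15 kb, the leaving out of SNHG9 and SNHG19, and of peaks over another gene of the strand were chosen after seeing the data. With the window of 2 to 10 kb, 11 hosts had both kinds of peak in each list (35.5%), against 14. The shares in untreated and treated cells were then 0.777% and 0.842% of all genes, and 1.97% and 2.15% of protein-coding genes. Of the other protein-coding snoRNA hosts, 9.20% and 8.49% had both. No paired analysis was possible because only 1 list exists per condition. Depth and peak height are not in the lists, so a host without a peak may have had a signal below the limit of the peak procedure.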
